A study of Homo sapiens with 8 samples.

Results

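The genes described here encode 8 members of the ETS family of transcription factors: ETV1, ETV4 and ETV5, which form the PEA3 subfamily, and ETS1, ETS2, ELK3, ERF and ELF1. They were listed by name, with earlier results of these data known, out of 18404 genes measured on Affymetrix Human Gene 1.0 ST arrays. All 8 were measured, each by 1 probe set. The cells were COLO829, an established human melanoma line that carries the activating BRAF V600E mutation. Infected cell populations, not single clones, carried a pGIPZ vector with a hairpin that targets MITF, the master regulator of melanocytes, or with a scrambled hairpin as control. The labels name a single hairpin for MITF. All of them had been selected in puromycin for 2 days and then received PLX4032 at 1 µM (vemurafenib, which blocks BRAF V600E) or the solvent DMSO for 24 h. The 4 groups were scrambled DMSO, knockdown DMSO, scrambled PLX4032 and knockdown PLX4032, with 2 arrays each, lettered A and B. Nothing in the labels says that A and B were separate cultures, so each p-value rests on array-to-array spread that may be technical. The RNA came from whole cultures, so fewer expressing cells and less RNA per cell cannot be told apart.

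ETS factors share a DNA-binding domain that reads a GGAA core, and many of them are endpoints of the RAS, RAF, MEK and ERK kinase cascade. ERK signalling lifts repression by CIC (Capicua) from the PEA3 genes. ERK also phosphorylates ETS1, ETS2 and ELK3, which raises their activity, and it sends the repressor ERF out of the nucleus. In melanoma, mutant BRAF drives this cascade, and ETV1 is known as an oncogenic factor of the melanocyte lineage. An array reads mRNA, so protein amount, phosphorylation and location of these factors were not measured.

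Levels are log2 intensities made by the authors with RMA, and changes are differences of those levels. Changes are given ± SE from a limma fit over all 8 arrays, with 2 arrays per group, and levels as mean ± SD. A gene was called changed at a Benjamini-Hochberg adjusted p below 0.05 over all 18404 genes. The median SE of a change was 0.094 over all genes, and 0.13 for the interaction. Within a group, the 2 arrays correlated at 0.9973 to 0.9984 across genes. MITF, the target of the hairpin, read 10.44 and 10.46 in scrambled DMSO cells, 9.57 and 9.47 in knockdown DMSO cells, 10.88 and 10.80 in scrambled PLX4032 cells, and 10.07 and 10.08 in knockdown PLX4032 cells. The hairpin thus lowered it 1.91-fold in DMSO and 1.7-fold under PLX4032. Of 8 melanocytic markers 7 were measured, with PMEL the brightest at up to 12.73, and their average level ran from 9.3 in knockdown DMSO cells to 10.99 in scrambled PLX4032 cells. They did not move together: on knockdown in DMSO, MLANA, TYRP1, PMEL and MITF itself fell, while S100B rose (0.56 ± 0.084, limma adjusted p = 0.000474). TYR and SOX10 were not called there. The averages of 8 leukocyte, 6 endothelial, 6 fibroblast and 6 keratinocyte markers ranged less between groups (4.92 to 5.09, 5.16 to 5.26, 5.53 to 5.86 and 4.59 to 4.7). Single markers stood higher, in the same order up to 10.95 (CD68), 8.69 (KDR), 9.81 (LUM) and 6.49 (KRT14). The widest range of group means of 1 marker was 0.85, 1.16, 0.79 and 0.38. The part of any of these markers in a change below was not tested.

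A promoter sequence was matched for 5 of the 8 genes (ETV1, ETS2, ELK3, ERF and ELF1) at 16 start sites in RefSeq's GRCh38.p14 annotation. The 250 bases before each start were searched on both strands. The words were the CIC octamers (TGAATGAA, TGAATGGA, TCAATGAA and TCAATGGA), the ETS core CCGGAA, the longer ETS site CCGGAAGT that contains it, and the E-boxes CACGTG and CATGTG that MITF can bind. The outermost of 6 ETV1 start sites was the only window of the 16 that held a CIC octamer, and it also held CCGGAA and CACGTG. It lies on the minus strand of chromosome 7, just before the transcript start, and is shown because 3 of the searched words, in capitals, stand close together in it:
ETV1 promoter, chr7:13991426-13991675, minus strand: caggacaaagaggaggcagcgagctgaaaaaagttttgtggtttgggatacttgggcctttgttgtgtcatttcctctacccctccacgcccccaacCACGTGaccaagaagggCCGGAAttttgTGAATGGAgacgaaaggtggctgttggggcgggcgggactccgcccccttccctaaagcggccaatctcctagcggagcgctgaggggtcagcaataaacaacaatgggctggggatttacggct

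CACGTG begins at position -153, CCGGAA at -136 and TGAATGGA at -125, counted back from the start site. Over all 35116 promoter windows of the same length, 3.18% held a CIC octamer, 14.5% held CCGGAA, 6.34% held CACGTG, 9.42% held CATGTG and 3.42% held CCGGAAGT. Of the other ETV1 windows, 2 that overlap almost fully held CCGGAA and 1 held CATGTG. None of the 10 windows of ETS2, ELK3, ERF and ELF1 held any of these words. A match is a run of letters, and binding was not measured.

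The PEA3 genes ETV1, ETV4 and ETV5 all fell under PLX4032 with either hairpin, and none of them was called on MITF knockdown in DMSO. Knockdown changed how far they fell, in opposite directions. ETV4 and ETV5 fell further in knockdown cells, whereas ETV1 fell less. ETS1 moved against them in its response to PLX4032, rising with either hairpin. On knockdown ETS1 fell in DMSO and under PLX4032, and under PLX4032 ETV4 and ETV5 fell on knockdown too. ELF1 rose under PLX4032 and ELK3 fell, ETS2 fell with knockdown, and ERF varied little.

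**Figure D1:**
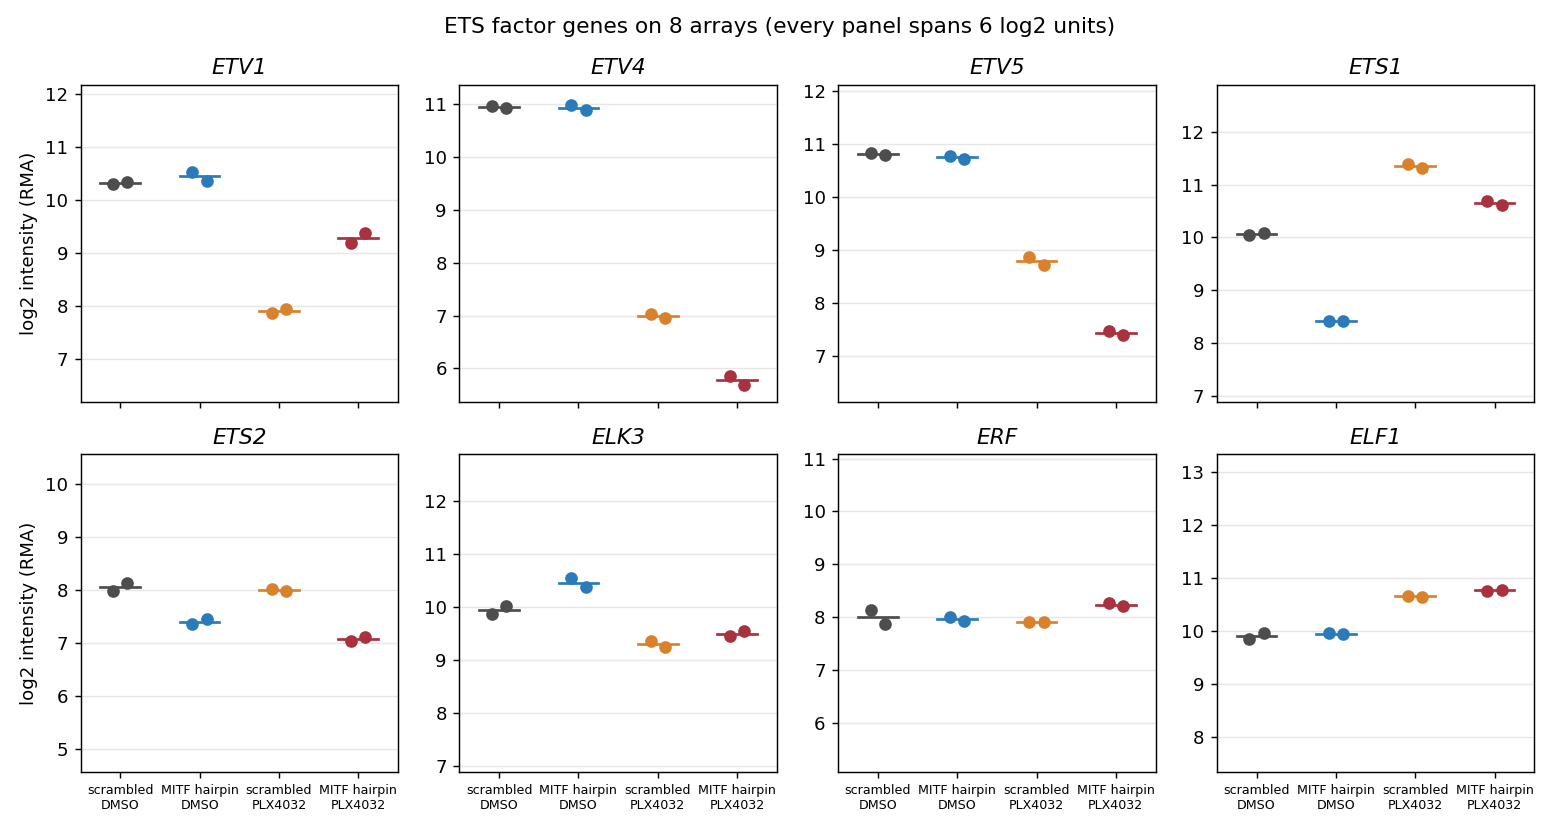
Log2 intensity of the 8 ETS genes on each array, by group; points are arrays A and B, bars are group means, and every panel spans 6 log2 units on its own axis. ETV4 drops from 10.94 in scrambled DMSO cells to 5.78 in knockdown PLX4032 cells, ETV1 is lowest in scrambled PLX4032 cells (7.91), and ETS1 is lowest in knockdown DMSO cells (8.41).

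ETV4 (probe set 8015806), the PEA3 founder gene, had the widest range of the 8. In DMSO it read 10.96 and 10.92 with the scrambled hairpin, and 10.98 and 10.88 with the MITF hairpin, so these groups overlapped. Under PLX4032 it read 7.02 and 6.95 with the scrambled hairpin, and 5.86 and 5.69 with the MITF hairpin, and neither group overlapped with any other. PLX4032 lowered ETV4 by 15.5-fold in scrambled cells (log2 change -3.96 ± 0.089, limma adjusted p = 7.63e-10) and by 35.6-fold in knockdown cells (-5.15 ± 0.089, adjusted p = 1.71e-10). Among 18404 genes these falls ranked 4 and 3 by size. With both perturbations against scrambled DMSO cells, ETV4 fell by 35.8-fold (-5.16 ± 0.089, adjusted p = 1.67e-10), the largest fall of any gene tested. The extra fall in knockdown cells was itself significant (interaction -1.20 ± 0.13, adjusted p = 0.000121). No detection calls were used, so how far the lowest ETV4 values stood above background is unknown.

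ETV5 (probe set 8092578), a close relative of ETV4, followed the same order of groups with a smaller range. In DMSO its arrays read 10.84 and 10.79 with the scrambled hairpin, and 10.77 and 10.73 with the MITF hairpin. Under PLX4032 its arrays read 8.87 and 8.71 with the scrambled hairpin, and 7.46 and 7.38 with the MITF hairpin, each group below the last. The inhibitor thus lowered it 4.08-fold in scrambled cells (-2.03 ± 0.085, adjusted p = 4.72e-08) and 10-fold in knockdown cells (-3.33 ± 0.085, adjusted p = 1.34e-09). The second fall exceeded the first by an interaction of -1.30 ± 0.12 (adjusted p = 5.1e-05). With both perturbations ETV5 fell 10.5-fold (-3.39 ± 0.085), ranking 9 among all falls.

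ETV1 (probe set 8138289), the PEA3 gene linked to melanoma, split from its relatives once PLX4032 was present. It read 10.30 and 10.34 in scrambled DMSO cells, 10.54 and 10.37 in knockdown DMSO cells, 7.87 and 7.94 in scrambled PLX4032 cells, and 9.20 and 9.38 in knockdown PLX4032 cells. Scrambled PLX4032 cells were therefore the lowest group, where for ETV4 and ETV5 it was knockdown PLX4032 cells. PLX4032 lowered ETV1 5.32-fold in scrambled cells (-2.41 ± 0.095, adjusted p = 2.77e-08) but 2.24-fold in knockdown cells (-1.16 ± 0.095, adjusted p = 3.12e-06). The interaction was 1.25 ± 0.13 (adjusted p = 0.000145). Under PLX4032, knockdown cells held 2.61-fold more ETV1 mRNA than scrambled cells (1.38 ± 0.095, adjusted p = 1.09e-06), whereas ETV4 and ETV5 stood 2.31-fold and 2.58-fold lower there (-1.21 ± 0.089 and -1.37 ± 0.085, adjusted p = 1.85e-06 and 5.33e-07).

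In DMSO the same hairpin left no call on any PEA3 gene. The knockdown changes were 0.14 ± 0.095 for ETV1 (95% interval -0.07 to 0.34), -0.01 ± 0.089 for ETV4 (-0.21 to 0.19) and -0.07 ± 0.085 for ETV5 (-0.26 to 0.12), with adjusted p of 0.302, 0.941 and 0.582. These intervals leave room for small changes in either direction. The sign for ETV4 turned under repeated quantile normalization (0.016).

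**Figure D2:**
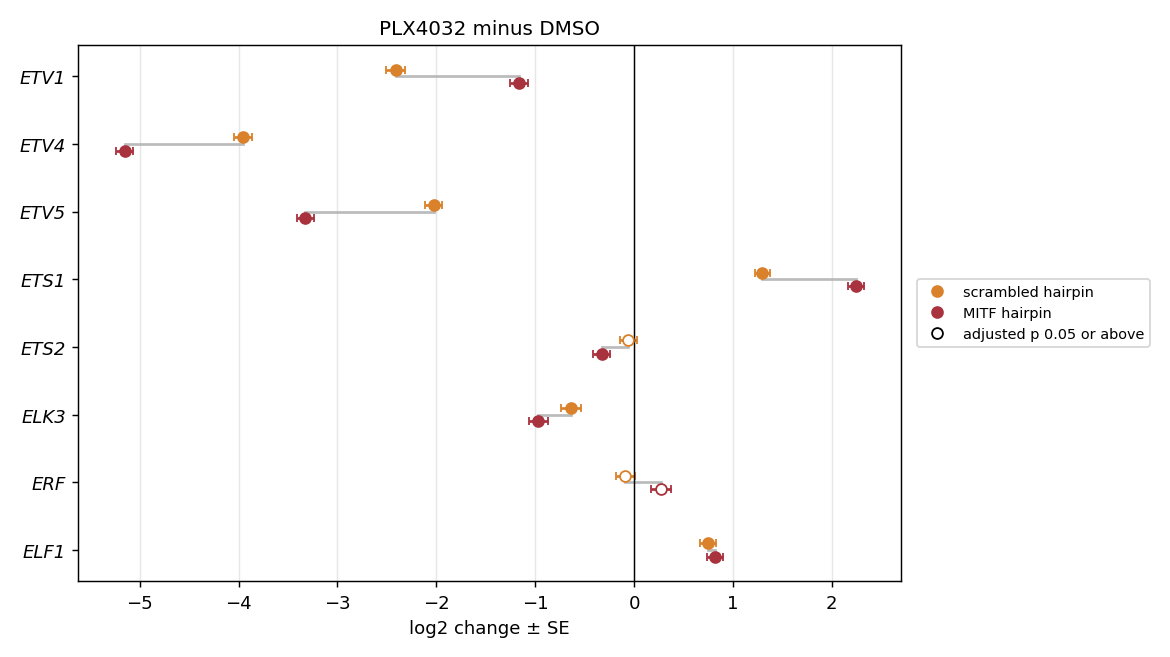
Log2 change under PLX4032 (PLX4032 minus DMSO, horizontal axis, ± SE) of each ETS gene with the scrambled hairpin (orange) and the MITF hairpin (red); open points had adjusted p of 0.05 or above. The red point lies left of the orange one for ETV4 (-5.15 against -3.96) and ETV5 (-3.33 against -2.03) and right of it for ETV1 (-1.16 against -2.41) and ETS1 (2.24 against 1.30).

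ETS1 (probe set 7952601), a factor of lymphoid, endothelial and neural crest-derived cells, was called in all 6 comparisons. It read 10.04 and 10.08 in scrambled DMSO cells, 8.42 and 8.41 in knockdown DMSO cells, 11.39 and 11.32 in scrambled PLX4032 cells, and 10.70 and 10.62 in knockdown PLX4032 cells. No arrays of different groups overlapped, and the order from low to high was knockdown DMSO, scrambled DMSO, knockdown PLX4032 and scrambled PLX4032. Knockdown lowered ETS1 3.12-fold in DMSO (-1.64 ± 0.079, adjusted p = 1.46e-07) and 1.62-fold under PLX4032 (-0.70 ± 0.079, adjusted p = 5.62e-05). PLX4032 raised it 2.46-fold in scrambled cells (1.30 ± 0.079, adjusted p = 5.67e-07) and 4.74-fold in knockdown cells (2.24 ± 0.079, adjusted p = 6.5e-09). The rise was larger in knockdown cells by 0.95 ± 0.11 (adjusted p = 0.000287). With both perturbations ETS1 remained 1.52-fold above scrambled DMSO cells (0.60 ± 0.079, adjusted p = 8.47e-05).

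ETS2 (probe set 8068593), the paralog of ETS1, fell with knockdown but did not share the rise under PLX4032. It read 7.98 and 8.12 in scrambled DMSO cells, 7.35 and 7.44 in knockdown DMSO cells, 8.02 and 7.97 in scrambled PLX4032 cells, and 7.04 and 7.10 in knockdown PLX4032 cells. The scrambled groups overlapped, and both knockdown groups lay below them. Knockdown lowered ETS2 1.57-fold in DMSO (-0.65 ± 0.086, adjusted p = 0.000175) and 1.9-fold under PLX4032 (-0.92 ± 0.086, adjusted p = 1.16e-05). The change under PLX4032 was -0.06 ± 0.086 in scrambled cells (95% interval -0.25 to 0.13, adjusted p = 0.651). In knockdown cells it was -0.33 ± 0.086 (adjusted p = 0.0115). That call was lost without knockdown DMSO replicate B (-0.28, adjusted p = 0.0999) or knockdown PLX4032 replicate A (-0.30, adjusted p = 0.0646), and the interaction was not called (-0.27 ± 0.12, adjusted p = 0.199).

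ELK3 (probe set 7957665) encodes a partner of serum response factor that represses until ERK phosphorylates it. It read 9.86 and 10.03 in scrambled DMSO cells, 10.56 and 10.37 in knockdown DMSO cells, 9.36 and 9.25 in scrambled PLX4032 cells, and 9.45 and 9.55 in knockdown PLX4032 cells. Knockdown DMSO cells were the highest group and the PLX4032 groups the lowest. PLX4032 lowered ELK3 1.56-fold in scrambled cells (-0.64 ± 0.098, adjusted p = 0.000424) and 1.96-fold in knockdown cells (-0.97 ± 0.098, adjusted p = 1.64e-05). Knockdown raised it 1.43-fold in DMSO (0.52 ± 0.098, adjusted p = 0.0021). Under PLX4032 the knockdown change was 0.19 ± 0.098 (95% interval -0.03 to 0.41, adjusted p = 0.183). The interaction was -0.33 ± 0.14 (adjusted p = 0.17).

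ELF1 (probe set 7971197), an ETS activator of the ELF subfamily, rose with the inhibitor to nearly the same degree with either hairpin. It read 9.85 and 9.96 in scrambled DMSO cells, 9.96 and 9.93 in knockdown DMSO cells, 10.66 and 10.64 in scrambled PLX4032 cells, and 10.76 and 10.78 in knockdown PLX4032 cells. The 4 inhibitor arrays lay above all DMSO arrays, and the DMSO groups overlapped. The rise was 1.68-fold in scrambled cells (0.75 ± 0.080, adjusted p = 3.13e-05) and 1.76-fold in knockdown cells (0.82 ± 0.080, adjusted p = 1.26e-05). For ELF1 the interaction was 0.07 ± 0.11, with a 95% interval from -0.18 to 0.32 (adjusted p = 0.77).

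ERF (probe set 8037166), the ETS repressor that ERK keeps out of the nucleus, had the narrowest range, 0.32 between the highest and lowest group means. It read 8.14 and 7.87 in scrambled DMSO cells, 8.01 and 7.92 in knockdown DMSO cells, 7.92 and 7.91 in scrambled PLX4032 cells, and 8.27 and 8.21 in knockdown PLX4032 cells. Its mRNA was called once, 1.25-fold higher with knockdown under PLX4032 (0.32 ± 0.098, adjusted p = 0.0301). That call was lost in each fit that left out 1 of the 4 arrays compared: knockdown PLX4032 replicate A (0.29, adjusted p = 0.124) or B (0.35, 0.0593), or scrambled PLX4032 replicate A (0.32, 0.115) or B (0.32, 0.109). Its change under PLX4032 was -0.09 ± 0.098 in scrambled cells and 0.27 ± 0.098 in knockdown cells (adjusted p = 0.538 and 0.0546).

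**Figure D3:**
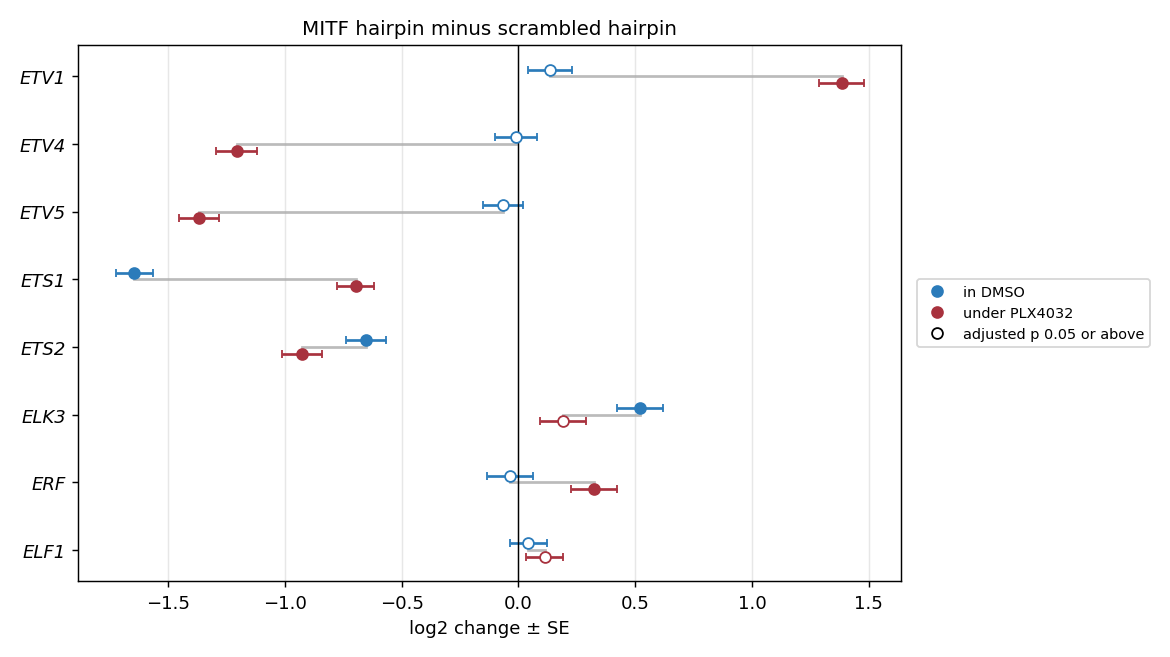
Log2 change on MITF knockdown (MITF hairpin minus scrambled hairpin, horizontal axis, ± SE) of each ETS gene in DMSO (blue) and under PLX4032 (red); open points had adjusted p of 0.05 or above. The 3 PEA3 genes sit near 0 in DMSO and part under PLX4032, with ETV1 at 1.38, ETV4 at -1.21 and ETV5 at -1.37, while ETS1 moves from -1.64 to -0.70.

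Counted together, knockdown in DMSO raised 1 of the 8 genes (ELK3) and lowered 2 (ETS1 and ETS2), where 14.4% of all genes rose and 18.8% fell. PLX4032 in scrambled cells raised 2 (ETS1 and ELF1) and lowered 4 (the PEA3 genes and ELK3), against 17.3% and 16.8% of all genes. In knockdown cells the inhibitor raised 2 and lowered 5, with ETS2 added to the falls, against 18.6% and 15.1%. Knockdown under PLX4032 raised 2 (ETV1 and ERF) and lowered 4 (ETV4, ETV5, ETS1 and ETS2), against 13.5% and 15.0%. Both perturbations together raised 2 (ETS1 and ELF1) and lowered 5, against 27.1% and 21.5%. The interaction was called up for 2 (ETV1 and ETS1) and down for 2 (ETV4 and ETV5), where 6.97% of all genes were called up and 4.85% down. The median change of the 8 was -0.36 under PLX4032 in scrambled cells and -0.65 in knockdown cells, beside 0.05 and 0.04 over all genes. The 8 genes were named with earlier results known, so these counts describe it and are no test, and comparisons that share a group share its arrays.

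Of 20 further ETS family genes 19 were measured. Their levels differed widely, with the highest group means in ETV3 (9.32 to 9.48) and the lowest in SPIC (3.39 to 3.67), and RMA compresses changes of dim probe sets. Of the 19, 8 were called in none of the 6 comparisons, among them ERG, ETV3, GABPA and ELK4. The share of all genes called in none was not counted, so this count does not set the 19 apart. Both perturbations together raised 7 of the 19 and lowered 2, beside 27.1% and 21.5% of all genes. FLI1 alone had group means at least 1 log2 unit apart (range 1.14), as had 14.1% of all genes. EHF (0.73) and ELK1 (0.56) had wider ranges than ERF (0.32), and whether the 19 differ from the 8 genes above was not tested. PLX4032 in scrambled cells raised 1 of the 19 (FEV, 0.25 ± 0.089, adjusted p = 0.0494) and lowered 1, FLI1, a relative of ERG (-1.05 ± 0.12, 2.07-fold, adjusted p = 4.97e-05). Over all genes, 17.3% rose and 16.8% fell in that comparison. FLI1 also fell with the inhibitor in knockdown cells (-0.66 ± 0.12) and on knockdown in DMSO (-0.48 ± 0.12, adjusted p = 0.0011 and 0.0102). Knockdown in DMSO raised 3 of the 19, EHF (0.70 ± 0.10), ELK1 (0.43 ± 0.090) and FEV (0.34 ± 0.089), and lowered 2, FLI1 and ELF4 (-0.44 ± 0.10). Over all genes, 14.4% rose and 18.8% fell there, so the rises were near the share over all genes. ELK1, a relative of ELK3, fell under PLX4032 in knockdown cells (-0.56 ± 0.090, adjusted p = 0.000513) and read -0.04 ± 0.090 in scrambled cells. It was the only one of the 19 with a called interaction (-0.52 ± 0.13, adjusted p = 0.0227). The interaction was called up for 6.97% and down for 4.85% of all genes, so this 1 call was near the share over all genes.

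Genes for regulators and partners of ETS proteins were listed next, and 18 of 22 were measured. PLX4032 raised 5 and lowered 3 of them in scrambled cells, beside 17.3% and 16.8% of all genes, so the falls were near the share over all genes. In knockdown cells it raised 6 and lowered 6, beside 18.6% and 15.1%. CIC, the repressor of the PEA3 genes, read 7.93 and 7.87 in scrambled DMSO cells, 7.97 and 7.99 in knockdown DMSO cells, 8.49 and 8.48 in scrambled PLX4032 cells, and 8.63 and 8.46 in knockdown PLX4032 cells. Its rise was close to equal with either hairpin, 1.5-fold in scrambled cells (0.58 ± 0.085, adjusted p = 3e-04) and 1.48-fold in knockdown cells (0.57 ± 0.085, adjusted p = 0.000317). The interaction for CIC was -0.02 ± 0.12, with a 95% interval from -0.28 to 0.25. ATXN1, which encodes a partner of CIC, rose in knockdown cells (0.50 ± 0.094, adjusted p = 0.00148), and its change in scrambled cells was 0.03 ± 0.094 (interaction adjusted p = 0.0425).

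COP1 and DET1 belong to a ubiquitin ligase that degrades PEA3 proteins, and Tribbles proteins bring substrates to COP1. COP1 fell on knockdown in DMSO (-0.38 ± 0.082, adjusted p = 0.00434) and under PLX4032 (-0.25 ± 0.082, adjusted p = 0.0396), and DET1 rose with the inhibitor in scrambled cells (0.56 ± 0.086) and knockdown cells (0.34 ± 0.086). TRIB1 had the largest interaction of the list. It read 10.26 and 10.24 in scrambled DMSO cells, 10.47 and 10.41 in knockdown DMSO cells, 9.95 and 9.85 in scrambled PLX4032 cells, and 7.93 and 7.96 in knockdown PLX4032 cells. Only the doubly perturbed arrays were far below the rest. PLX4032 lowered TRIB1 1.27-fold in scrambled cells (-0.35 ± 0.080) and 5.63-fold in knockdown cells (-2.49 ± 0.080, interaction -2.15 ± 0.11, adjusted p = 1.91e-06).

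TRIB2 and TRIB3 also had negative interactions (-1.10 ± 0.11 and -0.69 ± 0.12, adjusted p = 0.000118 and 0.00285), as did the ERK-activated kinase gene RPS6KA1 (-0.87 ± 0.15, adjusted p = 0.00262). RUNX1, which encodes a DNA-binding partner of ETS1, rose under PLX4032 in scrambled cells (0.46 ± 0.085) and further in knockdown cells (1.12 ± 0.085, interaction adjusted p = 0.00416). The coactivator gene CREBBP rose with the inhibitor in both (0.26 ± 0.079 and 0.52 ± 0.079). KIT, a receptor whose signalling stabilises ETV1 protein in some tumours, read between 3.53 and 3.80 on all 8 arrays and was called in no comparison.

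**Figure D4:**
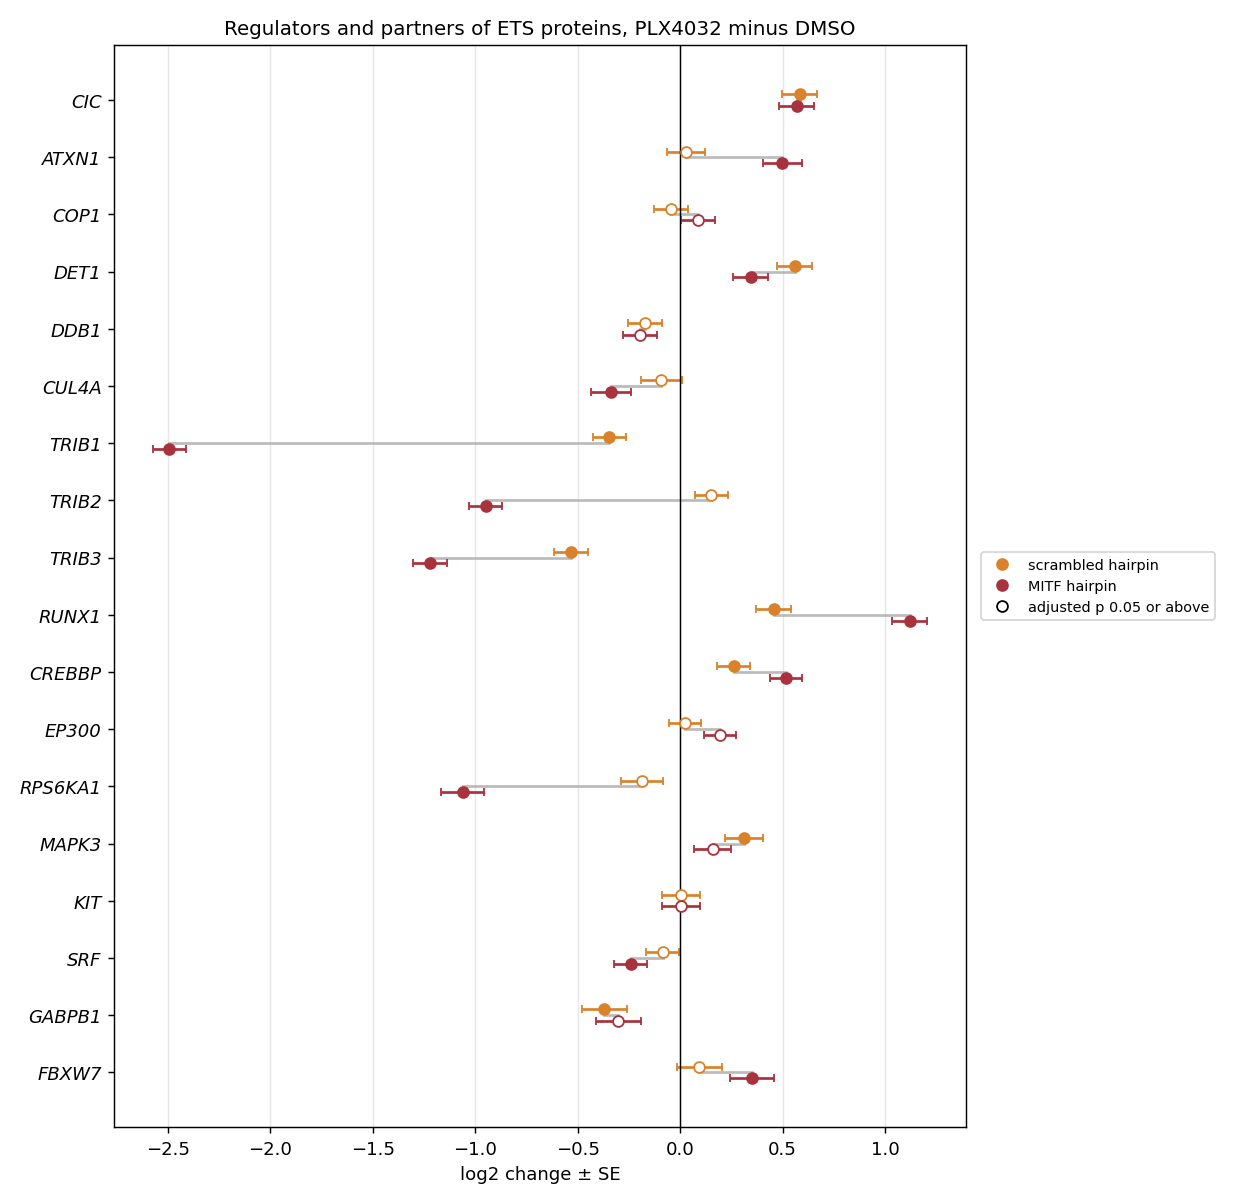
Log2 change under PLX4032 (PLX4032 minus DMSO, horizontal axis, ± SE) of 18 genes for regulators and partners of ETS proteins, with the scrambled hairpin (orange) and the MITF hairpin (red); open points had adjusted p of 0.05 or above. CIC rises alike with either hairpin (0.58 and 0.57), while TRIB1 stands at -0.35 and -2.49, and RUNX1 at 0.46 and 1.12.

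Genes of a MAPK activity readout and targets of serum response factor mostly fell under PLX4032. Over all genes, 16.8% fell in scrambled cells and 15.1% in knockdown cells. Any link of these falls to those of the ETS genes was not tested. Of 8 genes of the MAPK activity readout, taken without its ETS members, PLX4032 lowered 7 in scrambled cells (median change -1.60). EPHA4 was not called there. In knockdown cells PLX4032 lowered 7 and raised 1, EPHA2 (0.38), with a median change of -1.19 over the 8. Knockdown raised 5 of these 8 and lowered 0 in DMSO (median 0.37), beside 14.4% and 18.8% of all genes. Under PLX4032 it also raised 5 and lowered 0 (median 0.47), beside 13.5% and 15.0%. The interaction was called up for 4 of them, EPHA2 (1.39), SPRY2 (0.78), PHLDA1 (0.52) and DUSP4 (0.48), and down for 1, SPRY4 (-0.80), with a median interaction of 0.33 over the 8. Over all genes it was called up for 6.97% and down for 4.85%. Of 10 measured genes reported as targets of serum response factor with its ETS partners, the inhibitor lowered 7 in scrambled cells and 9 in knockdown cells. Their median interaction was -0.22, and it was called for 1 of the 10, NR4A1 (0.59), which is near the share over all genes. Knockdown in DMSO raised 8 of these 10 and lowered 0, where 14.4% of all genes rose and 18.8% fell, led by EGR1 (1.34), FOS (1.34), FOSB (1.30) and EGR3 (1.28).

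Of 24 measured genes reported as PEA3 or ETS1 and ETS2 targets, PLX4032 raised 5 and lowered 7 in scrambled cells, beside 17.3% and 16.8% of all genes. In knockdown cells 6 rose and 6 fell, beside 18.6% and 15.1%. The rises were near the share over all genes, and the median change was -0.04 and -0.02, beside 0.05 and 0.04. The largest called changes in scrambled cells were in HGF (-2.97 ± 0.12), the collagenase gene MMP1 (-1.56 ± 0.095), the receptor gene MET (1.36 ± 0.092) and PLAUR (-1.35 ± 0.093), the urokinase receptor gene. MET was the list member with the largest interaction (-2.48 ± 0.13, adjusted p = 1.91e-06), since it fell in knockdown cells (-1.12 ± 0.092). MITF is itself on this list, reported as an ETV1 target. It rose with the inhibitor in scrambled cells (0.39 ± 0.080) and knockdown cells (0.56 ± 0.080, adjusted p = 0.00319 and 0.000239) while ETV1 fell in both.

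Patterns over the 8 arrays were compared with 2585 genes outside the family whose group means spanned at least 1 log2 unit. Pearson's r is given as a measure of likeness over 8 arrays that share 4 groups, with no test. Nearest to ETS1 was TYRP1, a melanosomal enzyme gene (r = 0.999). TYRP1 took the same order of groups, with means of 5.58 in knockdown DMSO, 8.14 in scrambled DMSO, 9.07 in knockdown PLX4032 and 10.21 in scrambled PLX4032 cells. STX7, INPP4B, MOB3B and QPCT followed (0.995 to 0.994). Nearest to ETV4 were SFXN2 (0.998), the hexokinase gene HK2 (0.997), SLC27A3 (0.996), TMC7 (0.994) and LEF1 (0.992). LEF1, a transcription factor of the Wnt pathway, also headed the list for ETV5 (0.999), ahead of DCPS, EYA4, TMT1B and ACTN1 (0.998 to 0.996). ETV1 had a different set: THBS2 (0.993), the growth factor genes PGF (0.992) and VEGFA (0.99), SYTL5 (0.99) and DCBLD2 (0.99). Like ETV1, VEGFA was lowest in scrambled PLX4032 cells (7.42) and higher in knockdown PLX4032 cells (8.72).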

How the data were processed

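The authors deposited 1 log2 intensity for each probe set on each of 8 arrays. Per the submitters' processing notes these came from RMA (background correction, quantile normalization and summary of probes), with no version named. RMA makes the arrays' distributions alike, so a shift of most genes one way would not be seen, and it compresses changes of dim probe sets. Of 32321 probe sets, 19158 had exactly 1 gene symbol in the platform annotation and 1388 had several. Current gene records matched 19128. For 637 genes the probe set with the highest mean over 8 arrays was kept, which gave 18404 genes, and no filter on dim genes was used. The test was limma 3.58.1 (R 4.3.3; lmFit, eBayes, a mean per group, 4 residual and 6.73 prior degrees of freedom), two-sided, for 6 contrasts, tested on simulated data. Precision is limited by the number of arrays.

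The genes and lists were chosen with earlier results of these data known. Named were the 8 genes, up to 4 list members with the largest called change, CIC, COP1, MITF and KIT always, and the 5 nearest patterns. Named besides, after their values were seen, were further list members that were called or that illustrate a list. Promoter sequences came from RefSeq (GRCh38.p14). The planned comparison of protein sequences was not run. Alternatives were repeated quantile normalization, leaving out the dimmest 40% of genes, the mean of a gene's probe sets, each probe set as a feature, only the arrays compared, eBayes with trend and robust estimation, a replicate block and leaving out each array.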

Additional observations from a re-analysis of the deposited data

Results flagged for a closer look

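The response to PLX4032 differed between knockdown and scrambled cells, by limma's interaction term, for 4 of the 8 ETS genes. Over all genes, the interaction was called up for 6.97% and down for 4.85%. The 8 genes were named with earlier results known, so this count is no test. The change in knockdown cells minus that in scrambled cells was 1.25 for ETV1 (adjusted p = 0.000145), -1.20 for ETV4 (0.000121), -1.30 for ETV5 (5.1e-05) and 0.95 for ETS1 (0.000287). All 4 kept their direction in each of the 8 fits that left out an array. The interaction then ran from 1.15 to 1.34 for ETV1, -1.28 to -1.11 for ETV4, -1.38 to -1.22 for ETV5 and 0.91 to 0.99 for ETS1. All 4 also kept their call under the other alternatives that allow an interaction. Of those, only repeated quantile normalization could move the estimate, since each of these genes had 1 probe set and the rest altered only its SE or adjusted p. Groups of 2 arrays are too small for a test of outlying arrays.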

How the results depend on the processing

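Limits are the 2 arrays per group, 1 labelled hairpin against MITF, and no measure of signal over background. The calls of ETV1, ETV4, ETV5 and ETS1 held under all alternatives that kept both arrays of a group, and their called changes kept direction without any 1 array. With both arrays kept, only repeated quantile normalization could move a change. The other alternatives altered at most its SE or adjusted p, and those that treat probe sets differently left the values of these genes, with 1 probe set each, as they were. A fit without an array assumes that the lone array of its group varies like the others. Without 1 array, genes that rose with knockdown under PLX4032 numbered 1 to 2 of the 8, ERF being lost. Uncalled changes that turned sign under repeated quantile normalization were ETV4 (0.0162) and ERF (0.0752) on knockdown in DMSO. Leaving out an array gave, on knockdown in DMSO, -0.0590 to 0.0386 for ETV4, -0.172 to 0.0996 for ERF and -0.0152 to 0.101 for ELF1, and, for PLX4032 in scrambled cells, -0.223 to 0.0486 for ERF and -0.131 to 0.0169 for ETS2. ERF was close to the threshold. With PLX4032 in knockdown cells it was called up without the dimmest genes, with only the arrays compared and with the trend and robust option. With both perturbations it was called up under repeated quantile normalization, without the dimmest genes and with the trend and robust option. Without scrambled DMSO replicate A both of these ERF calls appeared. Its interaction was called only without scrambled DMSO replicate B (0.49), where the PLX4032 rise in knockdown cells was called too. ETS2 lost its fall with PLX4032 in knockdown cells without knockdown DMSO replicate B or knockdown PLX4032 replicate A. No other call of the 8 genes changed. The letters A and B are not shown to pair the arrays: the A minus B difference correlated between groups at -0.094 to 0.329. With the letter as a replicate block ERF rose with PLX4032 in knockdown cells (0.272, adjusted p = 0.0419), the only call of the 8 genes that moved with it. Counts over all genes moved by more than 1.5 times only without an array, down to 1645 rises and 2034 falls on knockdown in DMSO (from 2655 and 3459; without knockdown DMSO replicate A and B), 1809 falls on knockdown under PLX4032 (from 2763; without scrambled PLX4032 replicate A), and 702 and 543 called up and down in the interaction (from 1283 and 893; without knockdown DMSO replicate B and A).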
